A study of Mus musculus with 6 samples.

Results

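The nectins and the epithelial cadherins are the 2 families of adhesion receptors that build the adherens junction between epithelial cells. The genes described are the nectin genes Pvrl1, Pvrl2, Pvrl3 and Pvrl4, under the older symbols used in the deposited table (now Nectin1 to Nectin4), the nectin-like gene Pvr, and the cadherin genes Cdh1, Cdh3, Cdh6 and Cdh16. All 9 symbols were found among the 20896 transcripts of the table, 1 transcript each, and none was absent. The family was chosen by the fold change and adjusted p of Pvrl3 between the same clones, and the other 8 genes were added by family. The comparison of the groups is therefore given as a description.

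RNA came from clonal lines of mpkCCDc11, a line of mouse epithelial cells from the cortical collecting duct of the kidney. There were 3 clones labelled as PKA double knockouts (PKA dKO) and 3 control clones, each a separate line with 1 library. All 6 were grown on permeable supports for 4 days in medium with 2% serum, and then given dDAVP at 0.1 nM for 3 days without serum or other hormones; dDAVP is a form of vasopressin that acts on the V2 receptor. No library without dDAVP was analysed here. Because each line is 1 clone, differences between clones other than the knockout cannot be told apart from it, and nothing in the labels gives a repeat culture of a clone.

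Nectins are immunoglobulin-like receptors that bind nectins on the neighbouring cell, either of the same kind or of another kind, and nectin-1 with nectin-3 is among the strongest of the mixed pairs. Inside the cell they bind afadin, which links them to actin, while classical cadherins bind catenins and hold the junction in a calcium-dependent manner. Pvr, the mouse counterpart of the human poliovirus receptor, belongs to the nectin-like molecules, which do not bind afadin. Cdh1 encodes E-cadherin and Cdh3 P-cadherin, both classical type I cadherins. Cdh6 encodes K-cadherin, a type II cadherin found in the developing proximal tubule, and Cdh16 encodes Ksp-cadherin, a kidney cadherin with a short tail that lacks the catenin-binding region.

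The coding ends below are shown because the last codons decide which partner inside the cell a nectin can reach. Each line gives the last 30 coding bases before the stop codon of the transcript listed in the table, 5′ to 3′ on the coding strand, read from the GENCODE M21 transcripts of GRCm38. Capitals mark the last 12 bases, which in nectin-1, nectin-2 and nectin-3 encode the short C-terminal motif that binds the PDZ domain of afadin.
Pvrl1: tctttcatttccaagaaaGAGTGGTATGTG
Pvrl2: gacttttttgtgtcacggGCCATGTATGTG
Pvrl3: tccgtaatttccaggaggGAGTGGTATGTC
Pvrl4: atctacatcaacgggcgaGGGCACCTGGTC
Pvr: agactgaacatggagccaAACAGCACAAGG
Pvrl3 and Pvrl1 shared 11 of these 12 bases, and Pvrl3 and Pvrl2 shared 7. Pvrl3 shared 5 with Pvrl4 and 2 with Pvr. For scale, it shared 6 with Cdh3 and 5 with Cdh1, so a match of 5 bases does not mark a shared motif. The same window in the cadherins, where it carries no afadin motif, is shown for E-cadherin and its close relative P-cadherin.
Cdh1: gcggacatgtacggcggtGGTGAGGACGAC
Cdh3: gcggacatgtatggtggcGGTGAGGATGAC
Cdh1 and Cdh3 shared 26 of 30 bases there. Despite such local likeness, no window of 50 bases in the transcripts of Pvrl1, Pvrl2, Pvrl3, Pvr, Cdh1, Cdh3 or Cdh16 was found in a transcript of another gene read in the same direction. Pvrl4 had 13 windows with such a match and Cdh6 had 9. Matches to the opposite strand, as an antisense gene would give, were not searched.

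The libraries held 28596444 to 42515838 reads recovered from the deposited values, and 16683 transcripts, all 9 described here among them, passed the filter on low reads. In 2 libraries, those of dKO clone 3 and control clone 1, reads were found on fewer transcripts. At least 1 read was found on 51.0% of 1349 olfactory and vomeronasal receptor transcripts in dKO clone 3 and on 50.7% in control clone 1, against 81.8% to 87.4% in the other 4. Prkaca, the gene of a PKA catalytic subunit, had 6.65 to 8.49 CPM (reads scaled to the TMM-adjusted library size) in dKO clones and 75.8 to 133 CPM in control clones. Prkacb, the gene of the other main catalytic subunit, had 99.1 to 105 CPM in dKO clones and 109 to 138 CPM in control clones, a log2 difference of -0.23 (limma adjusted p = 0.939). Which genes were edited is not stated in the labels. The 10 collecting duct markers summed to 4301 to 4669 CPM in dKO clones and 4497 to 5261 CPM in control clones. Of these 10, 1 passed the test as lower, where 0.168% of all genes tested passed in either direction. Aqp2, the vasopressin-regulated water channel that defines principal cells, had 1.82 to 3.39 CPM in dKO clones and 140 to 399 CPM in control clones. Of the general epithelial markers, Epcam had 469 to 500 CPM in dKO clones and 426 to 562 CPM in control clones, and Krt18 had 1530 to 1835 and 1925 to 1967 CPM. The summed level of 5 endothelial markers was 0.98 to 5.29 CPM in dKO clones and 1.66 to 5.50 CPM in control clones, and that of 6 fibroblast markers 1.82 to 5.61 and 1.77 to 7.66 CPM. The 6 leukocyte markers summed to 52.9 to 91.4 CPM in dKO clones and 69.1 to 89.1 CPM in control clones. Of this sum Csf1r made up 32.3 to 67.9 and 35.0 to 55.3 CPM, while Ptprc, which defines leukocytes, had 0.84 to 2.04 and 2.05 to 3.67 CPM. The 6 urothelial markers summed to 137 to 148 CPM in dKO clones and 289 to 336 CPM in control clones, most of it Upk3b, and 2 of them passed as lower. The 6 intercalated cell markers summed to 106 to 172 and 157 to 191 CPM, nearly all Car2. No marker was at 0 in all 6 libraries, and the part of these cell types in the results was not tested. In bulk RNA, fewer cells with a transcript and less of it per cell cannot be told apart.

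The 9 genes covered a wide range of levels per length, given as CPM per kilobase of the listed transcript and averaged over all 6 clones. Cdh16 was the highest at 518 ± 128 (SD, n = 6), followed by Cdh1 at 196 ± 26.5. Next came Pvrl2 at 54.5 ± 6.23 and Cdh3 at 51.9 ± 12.9, whose ranges overlapped and whose order differed between clones, with Pvrl2 above Cdh3 in 4 of 6. Pvrl4 stood at 11.3 ± 2.44, Pvr at 7.84 ± 1.13 and Pvrl3 at 3.71 ± 2.64. The ranges of Pvrl4 and Pvr overlapped, as did those of Pvr and Pvrl3, although within each clone Pvrl4 lay above Pvr and Pvr above Pvrl3. Pvrl1, at 0.190 ± 0.092, and Cdh6, at 0.189 ± 0.182, were the lowest and did not separate. Cdh16 and Cdh1 thus lay at the 99.7th and 98.9th percentile of all transcripts in the table, and Pvrl1 and Cdh6 at the 24.2nd and 24.0th.

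**Figure D1:**
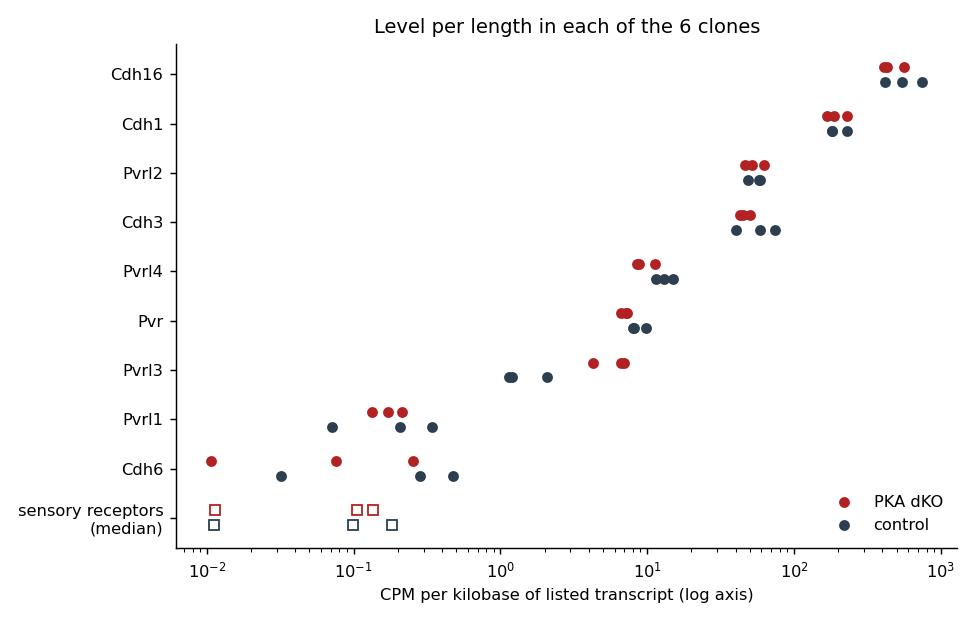
Level per length of the 9 genes in each clone, in CPM per kilobase of listed transcript on a log axis, with PKA dKO clones above control clones in each row. Open squares give the median of 1349 olfactory and vomeronasal receptor transcripts in each library, 0.011 to 0.135 in dKO clones and 0.011 to 0.183 in control clones, while Pvrl1 runs from 0.134 to 0.214 in dKO clones and 0.071 to 0.344 in control clones.

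Pvrl3 (nectin-3; ENSMUST00000023334.14, gene ENSMUSG00000022656.15, protein-coding, GRCm38 chromosome 16, 46447169 to 46496967 in the deposited table as are the positions given for the other genes, minus strand, 6 exons in GENCODE M21) was higher in each dKO clone than in any control clone. It had 13.1, 21.2 and 20.2 CPM in dKO clones 1, 2 and 3, from 526, 669 and 719 reads. Control clones 1, 2 and 3 had 3.49, 3.63 and 6.31 CPM, from 126, 111 and 274 reads. dKO clone 1 was the lowest of its group and control clone 3 the highest of its own, so the nearest values of the groups were 13.1 and 6.31 CPM. The mean was 18.2 ± 4.41 CPM in dKO clones and 4.48 ± 1.59 CPM in control clones (SD, n = 3 each). The fitted log2 difference was 2.03 (SE 0.28), a 4.08-fold higher level with a 95% interval of 2.66 to 6.27 (limma adjusted p = 0.0240), the value for which Pvrl3 was known when the set was made. Across all genes tested, 28 (0.168%) passed a limma adjusted p of 0.05, and 9 of them were higher in dKO clones (0.0539%). Pvrl3 was the only 1 of the 9 genes described that passed. The call was lost without dKO clone 2, where the log2 difference was 1.90 (limma adjusted p = 0.103), and without TMM scaling, where it was 2.04 (limma adjusted p = 0.0504). Over 18 alternatives the difference ran from 1.79 to 2.30, the adjusted p from 1.16e-08 to 0.103, and 16 of them called the gene. It was 1.79 without dKO clone 3 and control clone 1, and 2.51 between these 2 libraries alone.

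**Figure D2:**
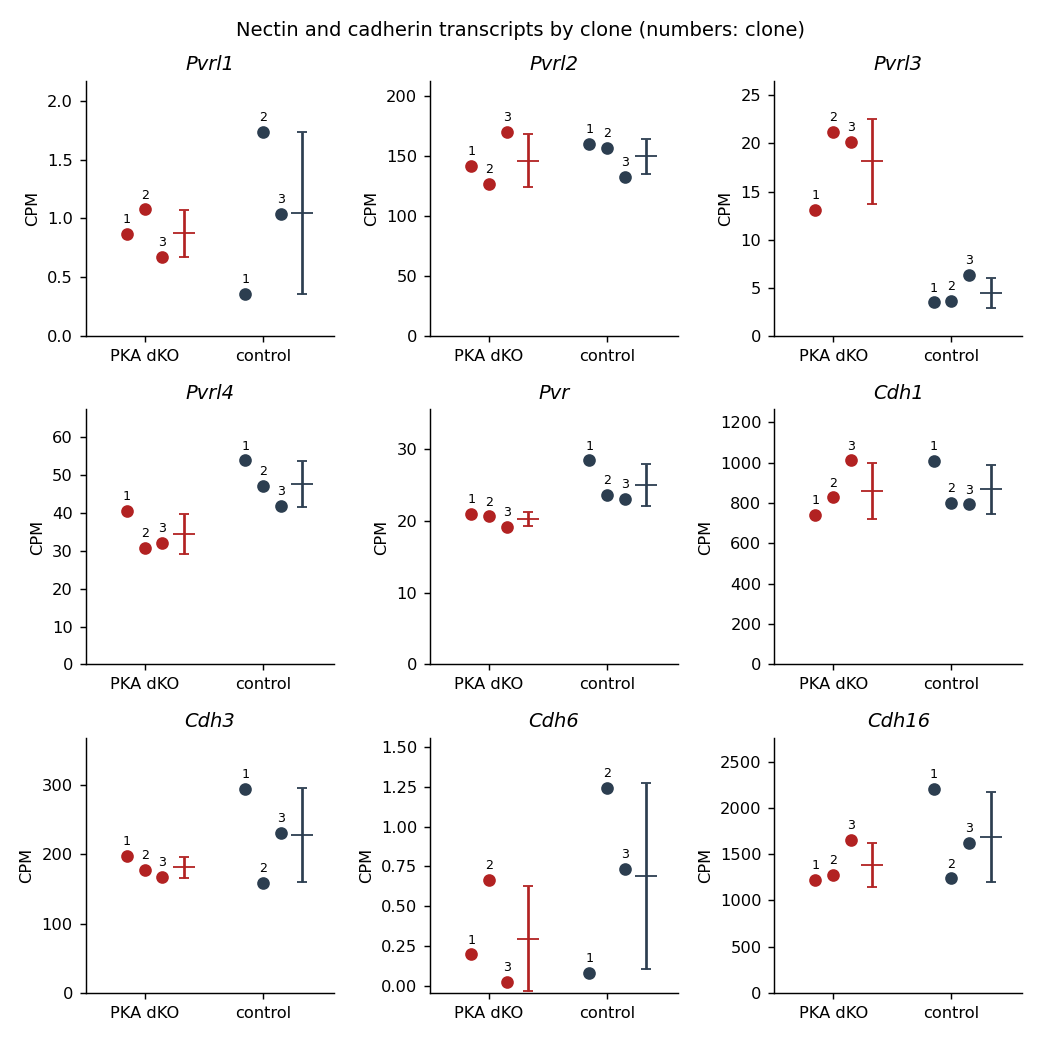
CPM of each gene in the 3 PKA dKO clones (left of each panel) and the 3 control clones (right), with the clone number above each point, and the mean ± SD beside them on linear axes. Pvrl3 lies at 13.1 to 21.2 CPM in dKO clones and 3.49 to 6.31 CPM in control clones, and Pvrl4 and Pvr are the other genes without overlap.

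Pvrl4 (nectin-4; chromosome 1, 171370352 to 171388598, plus strand, 9 exons), a nectin that binds nectin-1 in trans, was lower in each dKO clone, without passing. It had 40.6, 30.8 and 32.0 CPM in dKO clones 1, 2 and 3, against 53.9, 47.1 and 41.8 CPM in control clones. All dKO values lay below all control values, and dKO clone 1 came close to control clone 3. The log2 difference was -0.47 (SE 0.16) with a 95% interval of -0.81 to -0.12, and it did not pass over all genes (limma adjusted p = 0.492). It kept its sign in all 18 alternatives, between -0.59 and -0.32, and passed in none. In the authors' deposited table Pvrl4 had a log2 fold change of -0.48 with a false discovery rate of 0.0882, and Pvrl3 1.98 with 1.32e-08. The other 5 genes held by the authors' deposited table had -0.33 to -0.03 there, with false discovery rates of 0.408 to 0.973.

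Pvr (chromosome 7, 19903578 to 19921160, minus strand, 8 exons), whose product is a ligand of the leukocyte receptors CD226 and TIGIT, was also lower without passing. dKO clones 1, 2 and 3 had 20.99, 20.6 and 19.1 CPM, and control clones 28.4, 23.6 and 23.1 CPM. The dKO clones were close together, with a coefficient of variation of 4.83%, against 11.7% in control clones, and the groups did not overlap. The log2 difference was -0.30 (SE 0.15), with a 95% interval of -0.63 to 0.03. Without dKO clone 3 and control clone 1 it was -0.16, and that of Pvrl4 was -0.32. Of the 9 genes, 3 had groups that did not overlap, Pvrl3 above and Pvrl4 and Pvr below, where 10.8% of all genes tested had none (5.15% above and 5.67% below). The set was chosen by Pvrl3, so only the 8 others, 2 of them without overlap, can be set against that share. The difference was negative for 8 of the 9 genes and for 8370 of all 16683 genes tested, with medians of -0.26 and -0.0015.

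Pvrl2 (nectin-2; chromosome 7, 19716644 to 19749573, minus strand, 9 exons) was the most abundant nectin in every clone. dKO clones 1, 2 and 3 had 142, 127 and 170 CPM, and control clones 160, 157 and 133 CPM, so the groups overlapped fully. Its log2 difference was -0.04 (SE 0.14), a ratio of 0.971 with a 95% interval of 0.780 to 1.21. The sign turned in 3 of 18 alternatives. The antisense gene Gm20512 overlaps 135 bases of its exons, and without a stated use of strand the reads of the pair cannot be told apart.

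Pvrl1 (nectin-1; chromosome 9, 43744576 to 43807454, plus strand, 6 exons), the preferred partner of nectin-3 in trans, was near the floor. Only 35, 34 and 24 reads fell on it in dKO clones 1, 2 and 3, and 13, 53 and 45 in control clones 1, 2 and 3. These were 0.87, 1.08 and 0.67 CPM in dKO clones and 0.36, 1.73 and 1.04 CPM in control clones. Per kilobase, Pvrl1 stood at the 69.3rd to 92.0th percentile of the olfactory and vomeronasal receptor transcripts of the same dKO library, and at the 75.6th to 78.9th in control libraries. It was lowest in control clone 1, which also had few reads on those receptors. The log2 difference was -0.03 (SE 0.63), with a 95% interval of -1.41 to 1.35.

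As a share of the summed level per length of the 4 nectins and Pvr, Pvrl3 made up 5.72%, 10.0% and 7.80% in dKO clones 1, 2 and 3. It made up 1.35%, 1.48% and 2.92% in control clones. Pvrl4 took 10.4% to 14.95% of the sum in dKO clones and 16.2% to 17.6% in control clones. The share of Pvrl2 was 70.1% ± 3.38 in dKO clones and 70.1% ± 1.40 in control clones (SD, n = 3 each). The sum itself was 76.5 ± 7.82 CPM per kilobase in dKO clones and 78.7 ± 7.21 in control clones. The family total thus overlapped between groups, while Pvrl3 took a larger and Pvrl4 a smaller share in every dKO clone.

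**Figure D3:**
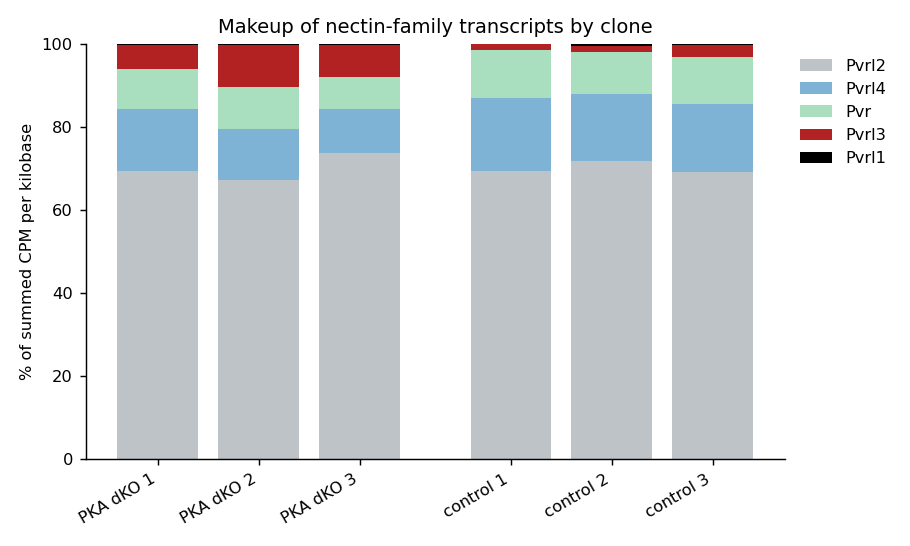
Share of each gene in the summed CPM per kilobase of the 4 nectin genes and Pvr, in percent, with 1 bar per clone and PKA dKO clones on the left. The Pvrl3 segment is 5.72% to 10.0% in dKO clones and 1.35% to 2.92% in control clones, and Pvrl2 makes up 67.2% to 73.8% of every bar.

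Cdh1 (E-cadherin; chromosome 8, 106603351 to 106670246, plus strand, 16 exons) had 742, 827 and 1011 CPM in dKO clones 1, 2 and 3, and 1009, 801 and 793 CPM in control clones. The groups overlapped, and the highest value of each came from the libraries that stood apart, dKO clone 3 and control clone 1. The mean was 860 ± 137 CPM in dKO clones and 868 ± 123 CPM in control clones (SD, n = 3 each). The log2 difference of -0.02 (SE 0.18) had a 95% interval of -0.40 to 0.37, and its sign turned in 5 of 18 alternatives.

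Cdh16 (Ksp-cadherin; chromosome 8, 104614141 to 104624396, minus strand, 17 exons), the most abundant of the 9 genes, had 1221, 1277 and 1658 CPM in dKO clones 1, 2 and 3. Control clones had 2205, 1238 and 1617 CPM. Control clone 1 was the highest, and the other values of the groups were mixed. The log2 difference was -0.26 (SE 0.24), from -0.46 to -0.04 over the alternatives.

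Cdh3 (P-cadherin; chromosome 8, 106510913 to 106556908, plus strand, 16 exons), the neighbour of Cdh1, had 198, 178 and 168 CPM in dKO clones 1, 2 and 3, against 295, 159 and 231 CPM in control clones. Control clone 2 lay below every dKO clone, and the coefficient of variation was 8.57% in dKO clones and 29.9% in control clones. The log2 difference of -0.29 (SE 0.20) came down to -0.02 without dKO clone 3 and control clone 1.

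Cdh6 (K-cadherin; chromosome 15, 13034200 to 13173639, minus strand, 12 exons) was covered by 8, 21 and 1 reads in dKO clones 1, 2 and 3, and by 3, 38 and 32 reads in control clones 1, 2 and 3. dKO clone 3 and control clone 1 were the lowest of their groups. The listed transcript has 2608 bases, while the same transcript has 8167 in GENCODE M21. The log2 difference of -1.07 had a 95% interval of -3.51 to 1.36. Its level per kilobase was at the 38.9th to 75.5th percentile of the olfactory and vomeronasal receptors of the same dKO library and at the 57.1st to 87.5th in control libraries. Proximal tubule markers, the cell type in which Cdh6 is known, summed to 701 to 868 CPM in dKO clones and 313 to 412 CPM in control clones over 8 genes. Of these 8, 1 passed as higher in dKO clones, where 0.0539% of all genes tested did. Lrp2 alone made up 687 to 851 CPM of this in dKO clones and 299 to 392 CPM in control clones, and the part of these markers in the values of Cdh6 was not tested.

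Among the cadherins the makeup overlapped between groups, with Cdh16 at 64.9% to 67.2% of the summed level per length in dKO clones and 65.2% to 71.0% in control clones. Cdh1 made up 26.8% to 28.3% in dKO clones and 21.9% to 28.4% in control clones.

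**Figure D4:**
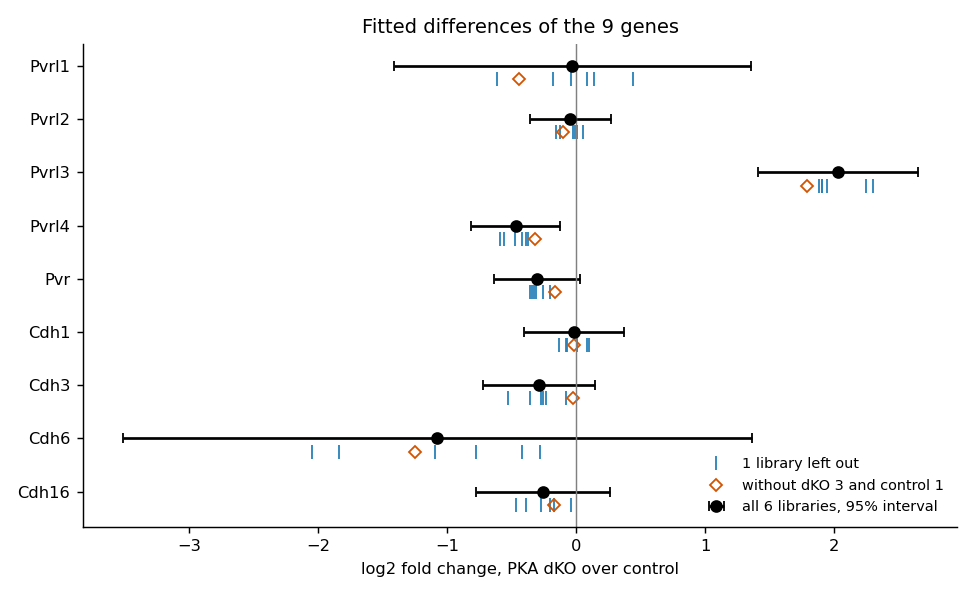
Fitted log2 difference of each gene, PKA dKO over control, with its 95% interval over all 6 libraries (black). Blue ticks give the 6 fits that leave out 1 library and open diamonds the fit without dKO clone 3 and control clone 1; Pvrl3 stays between 1.79 and 2.30 in these fits, and the 95% intervals of all other genes but Pvrl4 include 0.

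Promoter windows were found in RefSeq (GRCm38.p6, 250 bases before to 50 after the start) for 4 of the 9 genes, Pvrl2, Pvrl3, Pvrl4 and Cdh6. Those of Pvrl2 and Pvrl3 are shown because one holds a binding sequence of CREB, the transcription factor that PKA phosphorylates, and the other does not. Capitals mark the motifs searched on both strands, which were the full cAMP response element TGACGTCA, its core TGACG, the E-box CAGGTG of Snail and Zeb repressors, and the GC box GGGCGG. The core lies within the full element.
Pvrl2 promoter, chr7:19749524-19749823, minus strand: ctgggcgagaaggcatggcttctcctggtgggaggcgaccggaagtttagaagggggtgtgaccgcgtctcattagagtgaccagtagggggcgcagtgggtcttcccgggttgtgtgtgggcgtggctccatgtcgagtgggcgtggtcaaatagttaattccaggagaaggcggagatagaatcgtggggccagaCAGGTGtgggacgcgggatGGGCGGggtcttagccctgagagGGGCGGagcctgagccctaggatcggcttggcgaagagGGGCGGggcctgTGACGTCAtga
Pvrl3 promoter, chr16:46496918-46497217, minus strand: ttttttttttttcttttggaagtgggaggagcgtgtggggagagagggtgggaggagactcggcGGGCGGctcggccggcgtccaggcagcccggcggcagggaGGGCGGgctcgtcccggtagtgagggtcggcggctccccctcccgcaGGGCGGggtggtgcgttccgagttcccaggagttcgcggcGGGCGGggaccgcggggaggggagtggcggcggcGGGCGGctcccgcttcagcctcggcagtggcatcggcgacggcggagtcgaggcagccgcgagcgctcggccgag
The Pvrl2 window held 1 full cAMP response element, downstream of the start site, which 1.79% of all 32851 windows of this length hold, and 1 E-box, which 20.2% hold. The Pvrl3 window held neither cAMP motif and no E-box; the core occurs in 20.8% of windows. Both windows held GC boxes, 5 in Pvrl3 and 3 in Pvrl2, and 35.7% of windows hold at least 1. The windows of Pvrl4 and Cdh6 held neither cAMP motif. Pvrl2, with the full element, had a log2 difference of -0.04. Of the genes without it, Pvrl3 had 2.03, Pvrl4 -0.47 and Cdh6, on few reads, -1.07. Whether the element bears on these values was not tested. A match in these letters is a description, and binding was not measured.

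Genes that act with nectins and cadherins were examined in 6 lists, by the same fit across all genes. None of their 70 members tested passed over all genes, either higher or lower, where 0.168% of all genes did. At an unadjusted limma p under 0.05 they held 4 higher and 5 lower members, where 1041 of all genes tested (6.24%) did. No list member was called by DESeq2 or by the quasi-likelihood test of edgeR. Of 18 plaque proteins of the adherens junction, 8 had positive and 10 negative differences, with a median of -0.03 against -0.0015 over all genes. The afadin gene, listed as Mllt4, had 480, 464 and 534 CPM in dKO clones 1, 2 and 3 and 525, 466 and 470 CPM in control clones. Its log2 difference was 0.02 (SE 0.14). Ctnnb1, which encodes beta-catenin, averaged 761 ± 66.3 CPM in dKO clones and 740 ± 154 CPM in control clones. The plaque gene with the lowest p was Arvcf, a relative of p120 catenin that binds cadherin tails. It had 185, 149 and 195 CPM in dKO clones and 158, 115 and 110 CPM in control clones, a log2 difference of 0.48 (SE 0.17; limma adjusted p = 0.534). It passed without dKO clone 3 and control clone 1 (0.57, limma adjusted p = 0.0162), a fit in which far more of all genes passed. Jup, which encodes plakoglobin, had 276 to 335 CPM in dKO clones and 343 to 347 CPM in control clones.

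The repressors and activators of cadherin genes had 5 positive and 7 negative differences among 12 members, with a median of -0.20. Twist1, a repressor of the E-cadherin gene, had 9.01, 8.99 and 7.49 CPM in dKO clones 1, 2 and 3, and 0.58, 4.06 and 4.67 CPM in control clones. The groups did not overlap, and control clone 1, which stood apart, was by far the lowest. The log2 difference was 1.88 (SE 0.62; limma adjusted p = 0.472) and 1.05 without dKO clone 3 and control clone 1, where it passed (limma adjusted p = 0.0164). In that fit far more of all genes passed than in the main fit. Twist1 also passed with FPKM values, where its SE was 0.325 and genes of unlike spread had nearly equal SEs. Of the other repressors, Snai1 had 0.22 to 0.42 CPM in dKO clones and 0.66 to 0.85 CPM in control clones, and Zeb1 had 0.25 to 0.65 and 0.11 to 0.92 CPM. Zeb2 had 0.45 to 1.92 CPM in dKO clones and 0.58 to 5.20 CPM in control clones. Its log2 difference of -0.83 did not pass. The epithelial activator Grhl2 had 147 to 168 CPM in dKO clones and 178 to 201 CPM in control clones. Ovol2, which represses mesenchymal genes, had 3.04 to 4.08 CPM in dKO clones and 5.11 to 7.05 CPM in control clones. Neither gene passed over all genes, with log2 differences of -0.27 for Grhl2 and -0.80 for Ovol2.

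Among 7 genes of shedding and turnover the median was 0.02. Adam17, a protease that sheds membrane proteins, had 150, 146 and 152 CPM in dKO clones 1, 2 and 3, and 111, 115 and 121 CPM in control clones. Both groups were tight and did not overlap, yet the log2 difference of 0.37 (SE 0.11) did not pass (limma adjusted p = 0.416). Mmp14, a membrane metalloprotease, averaged 152 ± 36.9 CPM in dKO clones and 224 ± 65.3 CPM in control clones with overlap. Of 10 desmosome genes, 4 were positive and 6 negative. Dsc2, a desmosomal cadherin, had 58.1 to 85.3 CPM in dKO clones and 47.8 to 53.6 CPM in control clones, and Pkp1 had 2.30 to 5.43 and 4.79 to 10.3 CPM. The 17 other cadherins had 14 negative differences and a median of -0.30, where 8370 of all 16683 genes tested were negative. Some were near the floor, with 8 to 59 reads a library on Cdh9 and 10 to 61 on Cdh12. Of the 4 with the lowest p, Cdh9, Cdh12 and Cdh2 averaged 1.86 CPM or less in dKO clones and 3.21 CPM or less in control clones, and Cdh24 had 31.3 ± 4.31 and 37.7 ± 13.3 CPM. Among 6 nectin-like molecules and immune receptors the median was 0.15, with Cadm4 at 17.5 ± 3.13 CPM in dKO clones and 13.6 ± 2.18 CPM in control clones, and Cadm1 at 177 ± 11.6 and 200 ± 28.1 CPM. Tigit and Cd96, receptors of Pvr on leukocytes, were low, Tigit at 1.20 ± 0.61 CPM in dKO clones and 1.35 ± 0.19 CPM in control clones, and Cd96 at 0.395 ± 0.242 and 0.306 ± 0.169 CPM.

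**Figure D5:**
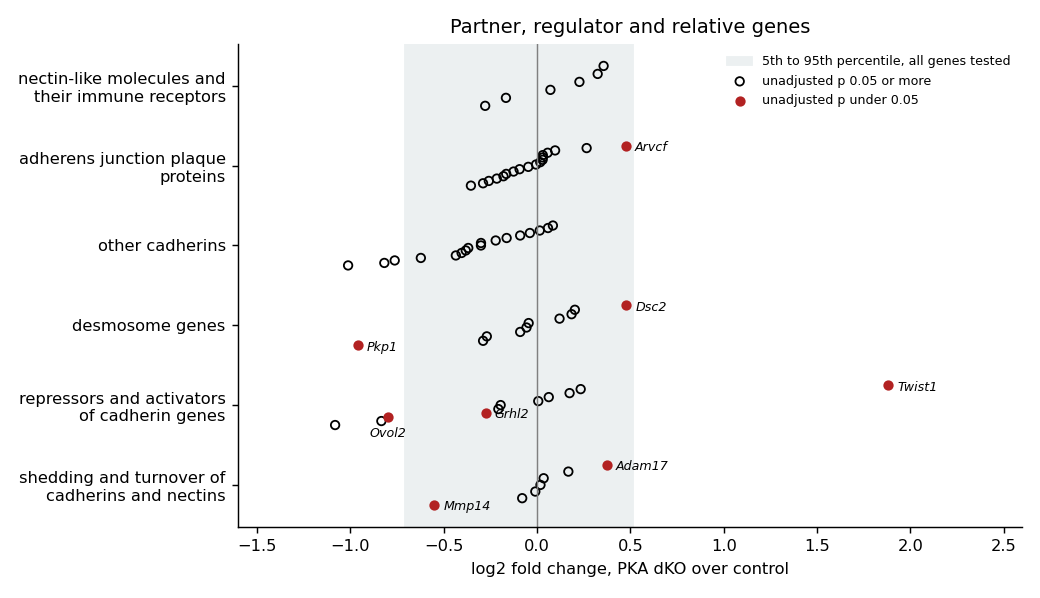
Log2 difference, PKA dKO over control, of the genes tested in the 6 lists, all but 1; filled points have an unadjusted p under 0.05 and are named, and the grey band spans the 5th to 95th percentile of all genes tested (-0.71 to 0.52). Twist1 at 1.88 lies farthest from 0, and none of the points passed the adjusted threshold.

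The genes whose log2 CPM followed Pvrl3 most closely over the 6 libraries, among 10538 candidates with a mean of at least 2 CPM, were Cwf19l2 (Pearson r of 0.994), Txlng (0.986), Rcor2 (0.984), Ubxn2a (0.984) and Btf3l4 (0.983). With 6 libraries and so many candidates such values are a description only. All but Rcor2 had log2 differences of 0.22 to 0.32, far smaller than that of Pvrl3. Rcor2, a corepressor gene of the CoREST family, had 16.0, 17.6 and 17.5 CPM in dKO clones 1, 2 and 3 and 9.49, 8.31 and 11.3 CPM in control clones, a log2 difference of 0.82 (limma adjusted p = 0.164). It passed with DESeq2 (adjusted p = 0.0125) and without dKO clone 3 and control clone 1 (limma adjusted p = 0.0302). More of all genes passed in both settings than in the main fit. Rcor2 was picked for its likeness to Pvrl3, which differed between the groups, so its p-values are a description only.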

How the data were processed

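RNA of 3 PKA dKO and 3 control clones was sequenced from 262 ng of rRNA-depleted total RNA, per the labels' protocols. Per the submitters' processing notes, HOMER 4.8, STAR 2.5.2a, edgeR and SAMtools were used with GRCm38.p5. For their roles, and for how strand and multi-mapped reads were treated, the sources used here give nothing. The read columns are a signal that the authors scaled to 1 total per library: 100% of values are whole multiples of 1 step (tolerance 0.01), which gave back 28596444 to 42515838 reads. The deposited FPKM values served as an alternative. The authors' deposited table of log2 fold changes, p-values and false discovery rates held 7 of the 9 genes, without Pvrl1 and Cdh6. Listed transcript length, from the deposited table, was used for CPM per kilobase.

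Scaled reads with TMM factors (0.909 to 1.07; edgeR 4.0.16) and a pseudocount of 1 were tested on the log2 scale with limma-trend (limma 3.58.1, R 4.3.3) across 16683 transcripts kept by filterByExpr (minimum 10 reads, minimum total 15), with Benjamini-Hochberg adjustment and a threshold of 0.05; 95% intervals are of the fit. Fold changes understate changes of low genes. edgeR's quasi-likelihood test and DESeq2 1.42.0 on recovered reads were alternatives. The fit was tried on simulated counts with the same dispersion in all genes and no libraries that stood apart. That setting differs from these data, so no support for the p-values is drawn from it. Except with FPKM values, the p-values rest on the spread between these clones' libraries. For each gene that spread is drawn in part toward a trend over all genes, so an SE is not the gene's own spread alone. With FPKM values the SEs were nearly equal between genes of unlike spread, at 0.314 for Adam17, 0.325 for Twist1 and 0.344 for Cdh6. In the main fit they were 0.114, 0.616 and 1.11. The p-values with FPKM thus do not measure each gene's own spread. Genes, lists and settings were chosen with earlier results of these data known. Named genes are the 9 members, up to 4 of each list with the lowest p, Prkaca and Prkacb, the highest gene of marker lists, and the 5 most like Pvrl3 (leaving out predicted Gm and Rik models). Mllt4, Ctnnb1, Snai1, Zeb1, Zeb2, Vcl, Epcam and Ptprc were added after their values were seen. Aqp2, a marker on the collecting duct list, was also named outside these rules. 1 gene of the lists is counted but not reported here by name.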

Additional observations from a re-analysis of the deposited data

How the results depend on the processing

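Of 720 values, 40 named genes under 18 alternatives each, 694 kept their sign and their side of the threshold. The number of genes called, 28, was 17 without TMM factors, 209 with DESeq2, 91 with FPKM, 518 without dKO clone 3 and control clone 1, 71 with a term for these libraries, and 11 to 146 leaving out 1 library (13 without dKO clone 1, 11 without dKO clone 2, 47 without dKO clone 3, 146 without control clone 1). Pvrl3 was the single gene of the 9 called in every alternative but 2, with 0 called without TMM factors (Pvrl3 at 2.04) and 0 to 1 leaving out 1 library (Pvrl3 at 1.88 to 2.30, the lost call without dKO clone 2). List genes called numbered 1 with FPKM (Twist1), 1 with the replicate block (Twist1) and 3 without dKO clone 3 and control clone 1 (Twist1, Arvcf and Vcl), against 0 in the main fit. Over all genes, 91, 196 and 518 were called in these settings, so the list calls came with many more calls everywhere. With clone number as a replicate block, 196 genes passed and Pvrl3 stood at 2.03 (limma adjusted p = 4.63e-05). Same-numbered clones deviated together only for number 2 (correlations -0.36, 0.64 and -0.34), and clones of 1 number share nothing in the labels, so this block is no pairing. Rcor2, picked for its likeness to Pvrl3, passed under the block too (limma adjusted p = 0.0484), which is a description only. Signs turned with FPKM for Pvrl2 (0.0227) and Cdh1 (0.00042), with chromosome medians removed for Cdh1 (0.0082), without dKO clone 3 and control clone 1 for Tigit (0.25) and Cdh24 (0.10), and leaving out 1 library for Pvrl1 (-0.61 to 0.44), Pvrl2 (-0.15 to 0.0577), Cdh1 (-0.13 to 0.10), Cd96 (-0.16 to 0.68), Tigit (-0.63 to 0.14) and Cdh24 (-0.38 to 0.0557); the cause was not tested. Pvrl1 and Cdh6 rest on 1 to 53 reads a library. Control clone 1, with 39780099 reads, had 13 and 3, and control clone 2, with 28596444 reads, had 53 and 38. Control clone 3, with 42515838 reads, had 45 and 32. A relation of these counts to library depth was not tested.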
